A study of Mus musculus with 18 samples.

Results

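In bone marrow-derived macrophages (BMDMs) of Il10-/- mice, 866 regions of accessible chromatin lost accessibility with the BET inhibitor (+)-JQ1 whether or not LPS was present, when counts were scaled to the library's total. The choice itself held their ratio of LPS to unstimulated between 0.6 and 1.6 at that scaling. The median of that ratio was 1.07 there and 1.26 under TMM, another scaling. These regions were selected on the measured values. CPM values, a peak's count per 1000000 counts of its library in all peaks, were averaged over the 3 libraries of a condition. A member had at least 2 CPM in unstimulated cells, a ratio of JQ1 to unstimulated of 0.6 or less, a ratio of LPS + JQ1 to LPS of 0.6 or less, and a ratio of LPS to unstimulated from 0.6 to 1.6. Of 194284 peaks in all, 101892 had at least 2 CPM in unstimulated cells and are called eligible peaks here, and 0.850% of these were members. The mirrored rule, with both JQ1 ratios raised by the same factor, chose 39 peaks.

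All cells came from male C57BL/6J Il10-/- mice, so that the macrophages of all 6 conditions, the controls included, made no IL-10 of their own. Bone marrow was grown into macrophages, left without an agent or given 500 nM (+)-JQ1 or 10 ng/mL of IL-10 for 12 h. They were then left unstimulated or given 50 ng/mL of the bacterial product LPS for 4 h. The study's methods name a vehicle control before LPS and, apart from it, untreated and unstimulated cells. The labels call both controls untreated, so JQ1 against unstimulated may include an effect of the vehicle, which was not tested. There were 3 libraries of ATAC-seq, an assay in which a transposase cuts open chromatin, for each of the conditions Unstimulated, JQ1, LPS, LPS + JQ1, IL-10 and LPS + IL-10. The choice of the members used 12 of the 18 libraries, and the 6 libraries of IL-10 and LPS + IL-10 took no part in it.

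BET proteins bind acetylated histones and bring the kinase complex P-TEFb to genes, where it releases paused RNA polymerase II. (+)-JQ1 fills the acetyl-lysine pocket of these proteins and displaces them from chromatin. Broad enhancers and enhancer clusters of highly expressed cell-type genes hold much BET protein and are known to be sensitive to BET inhibitors. IL-10 is a cytokine that restrains macrophage activation through STAT3, and LPS acts through the receptor TLR4.

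Of the 5 most strongly lowered members of at least 5 CPM, 4 are shown here, which lay near Gtf2ird2, Tlr7, Fyb and Ptpro. The middle 200 bases of each peak are shown on the forward strand of mm9. Counts cover whole peaks, so where in a peak the loss lay was not measured. Capitals mark matches on either strand to any of 14 motifs of macrophage and general transcription factors.
Gtf2ird2 peak, chr5:134692925-134693124: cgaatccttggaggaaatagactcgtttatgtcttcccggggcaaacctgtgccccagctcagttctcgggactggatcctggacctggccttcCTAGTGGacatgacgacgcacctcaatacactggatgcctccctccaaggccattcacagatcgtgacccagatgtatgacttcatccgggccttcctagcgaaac
Tlr7 peak, chrX:163738866-163739065: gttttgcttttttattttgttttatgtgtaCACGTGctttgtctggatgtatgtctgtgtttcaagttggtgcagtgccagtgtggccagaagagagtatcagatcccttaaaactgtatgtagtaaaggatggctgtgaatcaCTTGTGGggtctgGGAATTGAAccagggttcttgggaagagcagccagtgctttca
Fyb peak, chr15:6620500-6620699: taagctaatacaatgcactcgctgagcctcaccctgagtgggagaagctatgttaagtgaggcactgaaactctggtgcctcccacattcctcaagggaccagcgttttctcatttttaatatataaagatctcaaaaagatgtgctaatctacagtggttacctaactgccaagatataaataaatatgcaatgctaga
Ptpro peak, chr6:137378397-137378596: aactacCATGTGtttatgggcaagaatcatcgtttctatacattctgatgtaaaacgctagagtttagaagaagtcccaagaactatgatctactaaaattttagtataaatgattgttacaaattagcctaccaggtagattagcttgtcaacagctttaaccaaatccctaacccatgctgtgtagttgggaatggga
The capitals in the Gtf2ird2 window are a CTCF core, CCACNAG. The Tlr7 window held an E-box, CACGTG, a CTCF core and a PU.1-IRF composite, GGAANNGAA. The Ptpro window held an E-box of MITF type, CATGTG. The Fyb window held no match to the 14 motifs.

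Libraries held between 12020526 and 25908198 counts in peaks, so the minimum of 2 CPM stood for 24.0 to 51.8 counts in a library. The members took 0.333% to 0.457% of all counts in the unstimulated libraries, 0.185% to 0.199% with JQ1, 0.412% to 0.449% with LPS and 0.210% to 0.234% with LPS + JQ1. In the libraries outside the choice, they took 0.284% to 0.289% with IL-10 and 0.407% to 0.411% with LPS + IL-10. Scaling mattered for the choice itself. By TMM, a scaling that centres the bulk of the peaks, the 3 unstimulated libraries had factors of 1.24, 1.15 and 1.04, and the rule applied to TMM-scaled CPM chose 205 peaks, 189 of them among the 866. Under TMM the members' median ratio of JQ1 to unstimulated was 0.629 beside 1.02 for eligible peaks, and 529 of the 866 stood above 0.6. The ratio of LPS + JQ1 to LPS hardly moved with the scaling, with a median of 0.537 under TMM and 0.532 under column sums. The members' median ratio of LPS to unstimulated was 1.07 under column sums and 1.26 under TMM, under which 147 members exceeded 1.6. In bulk samples, fewer cells with an open region and less opening per cell cannot be told apart.

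Macrophage identity was checked at promoter peaks in unstimulated cells. All 5 macrophage markers with a promoter peak, including Csf1r, Emr1 and Lyz2, had 7.22 to 29.4 CPM there. Of the T cell markers, Lck alone had a promoter peak, at 14.5 CPM, and Cd3e, Cd3d, Cd4 and Cd8a had none. Promoter peaks of at least 2 CPM were found for 3 of 5 B cell markers, with a median of 4.24 CPM over the 4 that had a peak, for 3 of 6 markers of neutrophils and mast cells, for 3 of 5 of fibroblasts and for none of 3 erythroid markers. Over the whole peak, not per length, some of these lay within the range of the macrophage markers, with Elane at 27.0, Pdgfra at 25.7, Col1a1 at 13.2 and S100a8 at 10.8 CPM, so promoter accessibility did not set macrophages apart from these types. No marker peak was a member, and accessibility at a promoter does not show expression.

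The deepest losses are given first, peak by peak. With its middle in an exon of Gtf2ird2, a gene of the TFII-I family, and 2.90 kb from the nearest coding gene end, that of Ncf1, a peak of 3457 bp (chr5:134691296-134694753, mm9) had 17.6, 16.3 and 18.1 CPM in unstimulated replicates 1, 2 and 3 and 5.00, 4.08 and 3.91 CPM with JQ1. With LPS it had 22.1, 25.1 and 22.5 CPM, and with LPS + JQ1 7.71, 5.07 and 5.79 CPM. Every library with JQ1 was below every library without it. The fitted log2 fold-changes (edgeR, standard error beside each) were -1.72 ± 0.16 without LPS and -1.92 ± 0.15 with LPS, and are given as a description because the choice used these values. In the IL-10 libraries the same peak had 15.9, 15.9 and 17.0 CPM, close to the unstimulated level, and with LPS + IL-10 12.0, 17.4 and 13.3 CPM.

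Tlr7 encodes the endosomal sensor of single-stranded RNA. The member nearest to it (chrX:163735523-163742407, 6884 bp) lay 3.90 kb past the 3′ end of the gene and 29.4 kb from its start. It had 12.4, 11.6 and 12.9 CPM unstimulated, 5.81, 4.27 and 6.09 CPM with JQ1, 15.1, 16.4 and 18.3 CPM with LPS alone, and LPS + JQ1 left 3.67, 2.77 and 4.63 CPM. Its ratio of LPS + JQ1 to LPS, 0.222, was the lowest of all members. With IL-10 it stood at 8.81, 8.53 and 7.87 CPM, between the unstimulated and the JQ1 libraries.

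Fyb encodes an adaptor protein that links immune receptors to integrins and actin. A peak of 8925 bp downstream of the gene (chr15:6616137-6625062) had 34.4, 34.4 and 36.5 CPM unstimulated and 12.7, 10.3 and 10.1 CPM with JQ1. With LPS the values were 30.6, 44.4 and 35.3 CPM, and with LPS + JQ1 10.6, 13.2 and 14.1 CPM. IL-10 went the other way here, with 48.6, 45.8 and 45.7 CPM alone and 63.6, 66.9 and 56.8 CPM with LPS. The neighbouring member over the last part of Fyb (chr15:6607443-6616123) followed the same order, from a mean of 17.0 ± 1.54 CPM (SD, n = 3) unstimulated to 6.21, 5.71 and 6.28 CPM with JQ1 and 18.8, 20.9 and 20.4 CPM with IL-10.

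In Ptpro, a receptor-type tyrosine phosphatase gene, an intronic peak (chr6:137376281-137380712) had 8.74, 7.02 and 7.45 CPM unstimulated, 3.11, 3.70 and 3.71 CPM with JQ1, 8.01, 9.21 and 11.9 CPM with LPS alone, against 1.69, 3.23 and 2.86 CPM with both JQ1 and LPS. It was lower with IL-10 as well, at 5.70, 5.64 and 6.00 CPM, and at 4.47, 4.73 and 3.66 CPM with LPS + IL-10. Downstream of Clec4a2, which encodes an inhibitory C-type lectin receptor, lay 2 members. The first (chr6:123098230-123101773) had 8.49, 7.40 and 10.1 CPM unstimulated, 3.28, 1.07 and 1.83 CPM with JQ1, and 9.74, 10.3 and 12.4 CPM with IL-10, which overlapped the unstimulated libraries. Other peaks among the 12 leading members lay downstream of Tmem229b (2 peaks), of Pid1, of Myo1g, a haematopoietic myosin gene, and of Clec4a2 again, with another over Fyb. Over these 12 peaks the ratio of JQ1 to unstimulated ran from 0.238 to 0.453 and that of LPS + JQ1 to LPS from 0.222 to 0.539, and all 12 were also chosen under TMM.

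**Figure D1:**
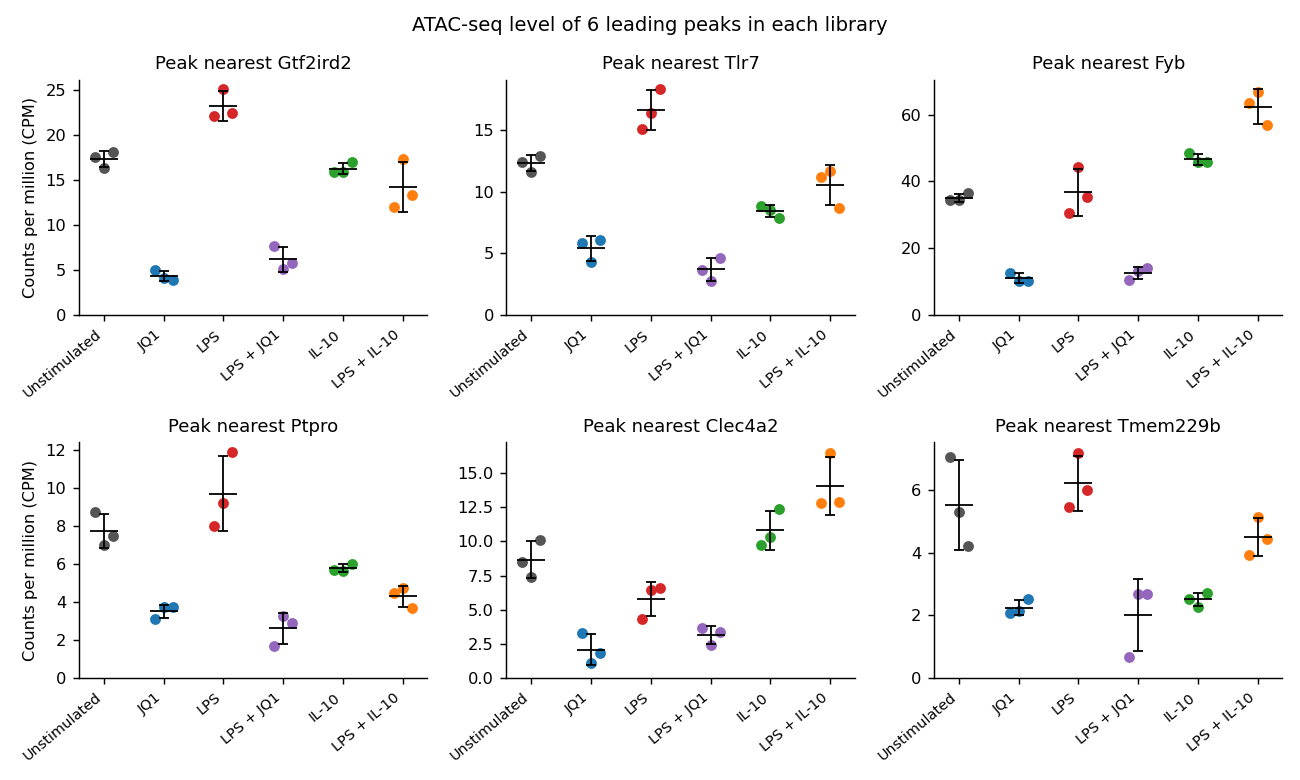
CPM (linear axes from 0) in each of the 18 libraries for 6 leading members, one panel per peak and one column per condition, with the mean and SD of 3 libraries in black. In each panel the 6 libraries with JQ1 lie below the 6 unstimulated and LPS libraries, while the libraries with IL-10 alone lie above the unstimulated ones for Fyb and below them for Tlr7 and Ptpro.

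Most members were weaker than these. Their median level was 2.86 CPM unstimulated (quartiles 2.31 and 4.25), 1.44 with JQ1, 3.17 with LPS and 1.62 with LPS + JQ1. Under 3 CPM lay 472 members, 166 reached 5 CPM, 58 reached 10 CPM and 20 reached 20 CPM. The median ratio of JQ1 to unstimulated was 0.512, with 0.219 as the lowest. In same-numbered libraries, 792 members were lower with JQ1 in all 3 pairs without LPS, 838 in all 3 with LPS and 770 in all 6, beside 11.9% of eligible peaks for the last. The 3 libraries with JQ1 did not overlap the 3 without it, in both contrasts, in 637 members and in 5.84% of eligible peaks. By edgeR's quasi-likelihood test (FDR under 0.05, log2 fold-change beyond 0.5), 332 members (38.3%) were called lower in JQ1 against unstimulated, where 3.15% of all tested peaks were. In LPS + JQ1 against LPS, 599 members (69.2%) were called lower, where 3.48% of all peaks were. These contrasts chose the members, so nothing is read from these counts.

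At the thresholds the values run on without a gap. Just inside the limit for JQ1 to unstimulated stood peaks near BC048403, Ankrd56 and 2610301B20Rik with ratios from 0.5998 to 0.5999, and just outside it peaks near Slc8a2, Pid1 and Klf10 with 0.6003 to 0.6005. For LPS + JQ1 to LPS, peaks near Ccna2, Il12b and S100z had 0.5994 to 0.5999, and peaks near Spdef, Sykb and Cd86 just missed it with ratios of up to 0.6003.

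To see the JQ1 ratios in libraries that did not choose the peaks, the rule was applied to 2 replicate numbers at a time and the chosen peaks were measured in the third. With replicate 1, 2 or 3 left out, 736, 953 and 1691 peaks were chosen. In the left-out replicate their median ratio of JQ1 to unstimulated was 0.544, 0.571 and 0.764, beside 0.879, 0.818 and 0.926 for all peaks that met the minimum level on the same 2 replicates. The median ratio of LPS + JQ1 to LPS was 0.686, 0.615 and 0.648, beside 1.01, 0.987 and 1.02. The mean of the 3 medians was 0.626 ± 0.120 (SD, n = 3) without LPS and 0.650 ± 0.0354 with LPS, so the left-out replicates differed more from each other in the first ratio than in the second. Both ratios were at 0.6 or less in 26.2%, 28.8% and 11.6% of the chosen peaks and in 2.72%, 3.40% and 1.27% of all peaks of that minimum level. The left-out ratio of LPS to unstimulated was 0.870, 1.04 and 1.38, beside 0.860, 0.891 and 0.935, so the chosen peaks of replicate 3 stood higher with LPS than those of the other two. Among the 59, 58 and 98 chosen peaks of at least 10 CPM, both ratios were at 0.6 or less in 52.5%, 72.4% and 29.6%, beside 0.435%, 0.661% and 0.215% of all peaks of that level. Among the 380, 524 and 854 chosen peaks of 2 to 3 CPM, the shares were 21.8%, 22.1% and 9.60%, beside 5.64%, 6.40% and 2.51%. The median ratio of JQ1 to unstimulated in this lowest band was 0.558, 0.571 and 0.782, beside 0.706, 0.684 and 0.870. Under TMM, in the choice and in the measurement, the left-out ratios were 0.686, 0.708 and 0.825 without LPS and 0.671, 0.612 and 0.662 with LPS, beside 1.03 to 1.15 and 0.999 to 1.04. No test was run on these 3 values a ratio. Both JQ1 contrasts compared libraries sequenced in the same lane for each replicate number.

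**Figure D2:**
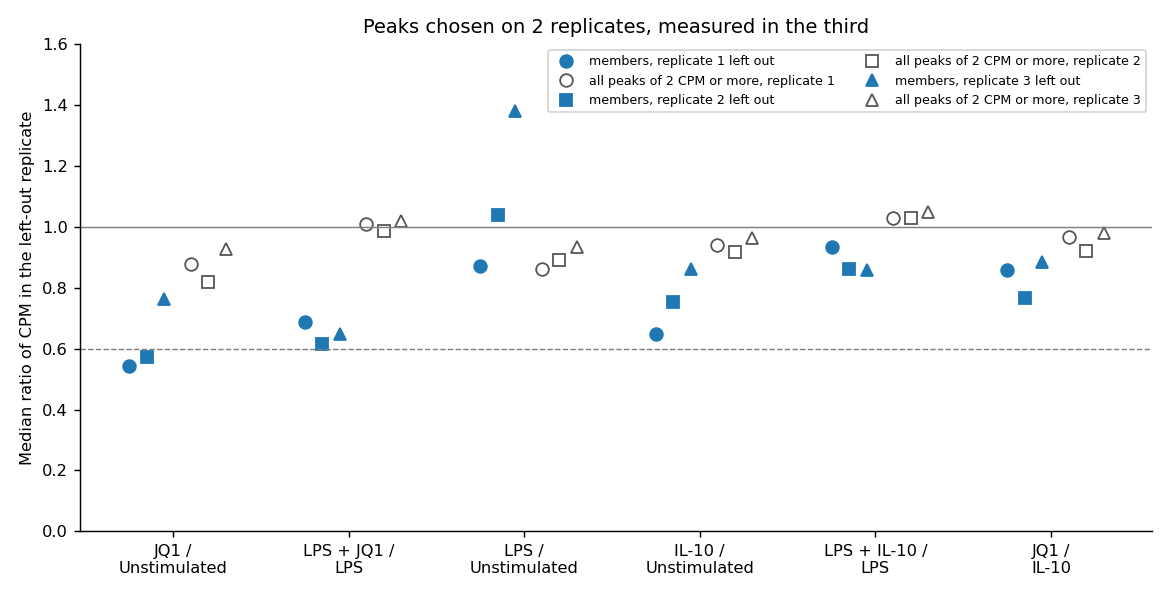
Median ratio of CPM (linear axis) in the replicate left out of the choice, for peaks chosen on the other 2 replicates (filled) and for all peaks of at least 2 CPM on the same 2 (open), with one symbol per left-out replicate and the limit of 0.6 dashed. Both JQ1 ratios lie below those of all peaks in each of the 3 replicates.

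Members were wide and low rather than sharp. Their median width was 1566 bp beside 1461 bp for eligible peaks, but the stronger the member, the wider it was: at 5 CPM or more the median width was 3960 bp beside 2075 bp for all eligible peaks of that level, and at 10 CPM or more 7722 bp beside 2074 bp. Of the members of at least 5 CPM, 74.1% were 3 kb or wider, against 27.1% of eligible peaks. Per length of peak, the median unstimulated level was 1.93 CPM per kb in members and 2.90 CPM per kb in eligible peaks, and among peaks of at least 10 CPM it was 2.37 beside 7.83 CPM per kb. Members made up 4.85% of eligible peaks with 1 to 1.5 CPM per kb (146 of 3013), 2.40% from 1.5 to 2, 0.867% from 2 to 3, 0.220% from 3 to 5 and 0.0489% at 5 or more (11 of 22493). Over all eligible peaks the median ratio of JQ1 to unstimulated moved with the same measure, from 0.703 at 1 to 1.5 CPM per kb to 1.20 at 5 or more, so level per length and the ratio were not independent of each other in these libraries, and the part of this in the members' ratios was not tested. Among eligible peaks of at least 10 CPM, 2 of 12724 peaks under 2 kb were members, 36 of 3305 (1.09%) from 5 to 10 kb and 13 of 561 (2.32%) at 10 kb or wider.

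Gene ends recurred among the strong members. After their values had been seen, distances to the annotated ends of protein-coding genes were measured for all peaks. Of the 58 members of at least 10 CPM, 19 (32.8%) had their middle within 5 kb downstream of a coding gene's end and 12 (20.7%) within 5 kb upstream of it, beside 12.5% and 10.4% of the 26158 eligible peaks of that level. Their median distance to a gene end was 4.53 kb beside 17.0 kb. Width goes with this position. Among peaks of at least 10 CPM that were 5 kb or wider, 53.1% of 49 members and 37.7% of 3817 other peaks lay within 5 kb of a gene end on either side. Over all 866 members the share was 24.7%, beside 18.5% of eligible peaks, and over the 205 chosen under TMM 29.8%. None of the 39 peaks raised by JQ1 lay within 5 kb downstream of a gene end. Taking all 775 eligible peaks of at least 10 CPM and 5 kb that lay within 5 kb downstream of a gene end, whatever their JQ1 ratio, the median ratio of JQ1 to unstimulated in replicates 1, 2 and 3 was 0.713, 0.703 and 0.828, beside 0.787, 0.759 and 0.876 for the 3091 such peaks elsewhere. The median ratio of LPS + JQ1 to LPS was 0.991, 0.924 and 1.01 beside 1.01, 0.926 and 0.992, so with LPS the groups did not part, and members made up 1.81% of the first group and 1.13% of the second.

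**Figure D3:**
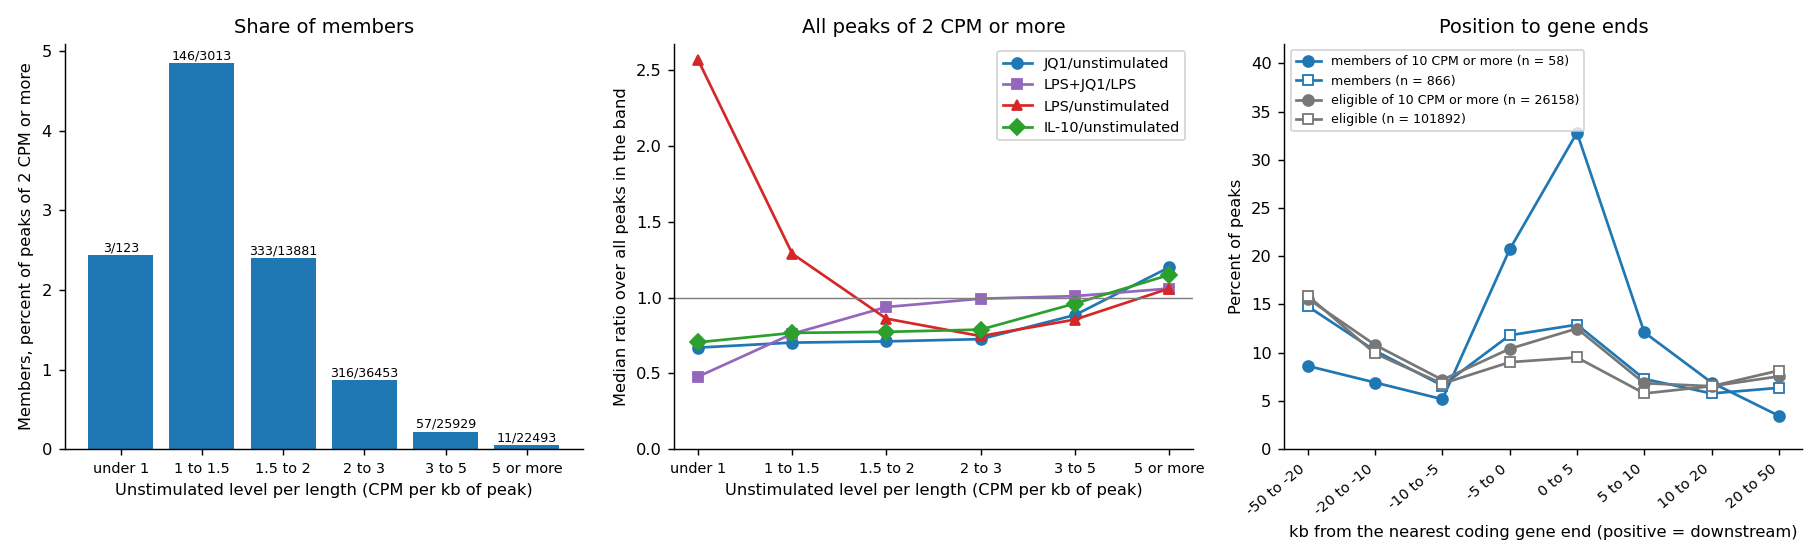
Left, members as a percentage of eligible peaks in bands of unstimulated level per length (CPM per kb of peak), with counts above the bars. Middle, median ratios of CPM over all eligible peaks in the same bands. Right, percentage of peaks by signed distance from the nearest end of a protein-coding gene, in bins of unequal width, for members (blue) and eligible peaks (grey), all (open squares) or of at least 10 CPM (filled circles). The share of members is highest from 1 to 1.5 CPM per kb at 4.85%, and the strong members peak at 32.8% within 5 kb downstream of a gene end.

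Members were mostly distal. By the authors' classes, 713 (82.3%) were distal, beside 73.1% of eligible peaks, and 153 were promoter peaks, a class for peaks from -1000 to 100 bp of a transcription start site. The middle of 585 members (67.6%) lay in a protein-coding gene, 496 in an intron and 89 in an exon, beside 61.5% of eligible peaks, and 281 lay outside coding genes. The median distance to a coding start site was 15.1 kb beside 9.25 kb. GC content was alike, at a median of 46.4% and 47.0%. Chromosome 1 held 106 members, 1.51% of its eligible peaks, chromosome 6 held 72 (1.27%) and the X chromosome 3 (0.207%). The peak past Tlr7 is among those 3.

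The strongest members of the promoter class were broad. The highest of all 866 in CPM over the whole peak, not per length, was a peak of 19539 bp (chr6:123220934-123240473) at Clec4e, the gene of the C-type lectin Mincle. It covered the end of the gene and also a start site, 9.19 kb from the peak's middle. It had 52.9, 53.6 and 59.1 CPM unstimulated, 26.6, 27.9 and 30.6 CPM with JQ1, 70.5, 88.4 and 75.7 CPM with LPS alone, against 51.6, 42.4 and 43.8 CPM with both JQ1 and LPS. It was no member under TMM. In Evl, a regulator of actin filaments, a peak of 12799 bp (chr12:109916733-109929532) fell further, from 40.5, 33.8 and 34.8 CPM to 17.0, 17.5 and 17.8 CPM with JQ1, and from 40.3, 47.3 and 47.2 CPM with LPS to 14.6, 17.5 and 19.6 CPM with LPS + JQ1. Also among these were a peak of 14400 bp whose nearest coding start site, that of Klf14, was 96.9 kb away (chr6:30998665-31013065), with a JQ1 ratio of 0.532, and a peak of 11807 bp in Sema4d, a semaphorin gene (chr13:51794089-51805896), with a JQ1 ratio of 0.406.

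Some members lay close to others along the genome. No share for eligible peaks is given here, so whether members group more than other peaks was not tested. Within 25 kb of another member lay 281 (32.4%), and 21 runs of at least 4 members held 120 of them. Besides Pid1, long runs were 8 members around Cd180 and Mast4 and 7 each at Klf7, at Fyb, where 7 of the 9 eligible peaks in 66.1 kb were members, and at Ptpro. Cd180 encodes a Toll-like receptor homologue on B cells and myeloid cells. Its run of 8 summed to 32.8 ± 4.25 CPM (SD, n = 3) unstimulated, 15.1 ± 1.66 with JQ1, 36.5 ± 2.19 with LPS, 16.4 ± 0.878 with LPS + JQ1, 19.9 ± 1.78 with IL-10 and 17.9 ± 2.78 with LPS + IL-10. At Gtf2ird2, Bfar and Whamm all 4 eligible peaks of a run were members. Ptprc, the gene of the leukocyte phosphatase CD45, held a run of 5, which summed to 26.0 ± 2.12 CPM unstimulated, 14.0 ± 1.17 with JQ1, 29.5 ± 5.24 with LPS and 15.6 ± 1.83 with LPS + JQ1. At Dusp16, a phosphatase that acts on the kinase JNK, a run of 5 had 18.5 ± 3.64, 9.51 ± 0.627, 23.9 ± 0.909 and 13.1 ± 2.39 CPM in the same order, and rose to 44.5 ± 4.10 CPM with LPS + IL-10 from 13.6 ± 1.13 with IL-10. Peaks of a run share a locus and are not separate observations of it.

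Among genes with members within 25 kb of a start site, Myo10, a filopodial myosin, had 9 of 41 eligible peaks. Their summed level was 51.2, 33.7 and 26.6 CPM unstimulated and 17.9, 18.6 and 18.7 CPM with JQ1, so unstimulated replicate 1 stood above the other two. Fyb had 7 of 21, with 119, 107 and 112 CPM summed unstimulated and 44.4, 39.7 and 40.9 CPM with JQ1, and LPS alone gave 100, 148 and 125 CPM, against 49.4, 54.0 and 62.9 CPM in LPS + JQ1. Ptpro had 7 of 22, and 6 of these also lay near Gm11078. Acsl1, an enzyme that activates long-chain fatty acids, had 6 of 23 members, with 23.2, 22.8 and 19.0 CPM summed unstimulated, 13.3, 12.7 and 10.0 CPM with JQ1. Gas7 had 5 of 46, and Gm15440 and Sema4d shared the same 4.

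At Pid1, which encodes a protein with a phosphotyrosine-interaction domain, 22 of the 85 eligible peaks nearest to it were members. They began 50.5 kb from the outermost start site and ran to 259 kb, and 19 of them formed one run of 166 kb. Summed over the 22, the level was 152, 125 and 120 CPM unstimulated, 65.4, 60.8 and 60.7 CPM with JQ1, 123, 170 and 157 CPM with LPS alone, and LPS + JQ1 left 67.7, 64.5 and 72.1 CPM. The other 63 eligible peaks nearest to Pid1, some of them upstream of the gene or in Dner, had median JQ1 ratios of 0.758 and 0.772 without and with LPS. IL-10 alone gave 98.8, 94.2 and 100 CPM over the 22, and LPS + IL-10 gave 295, 292 and 280 CPM, the highest of the 6 conditions in every replicate. The largest member here (chr1:84016462-84028674, 12212 bp) had its middle 10.3 kb past the 3′ end. It had 31.4, 23.1 and 27.3 CPM unstimulated, 24.0, 22.2 and 22.3 CPM with IL-10 and 65.2, 69.1 and 58.3 CPM with LPS + IL-10. Of the 22 members, 10 were also chosen under TMM.

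**Figure D4:**
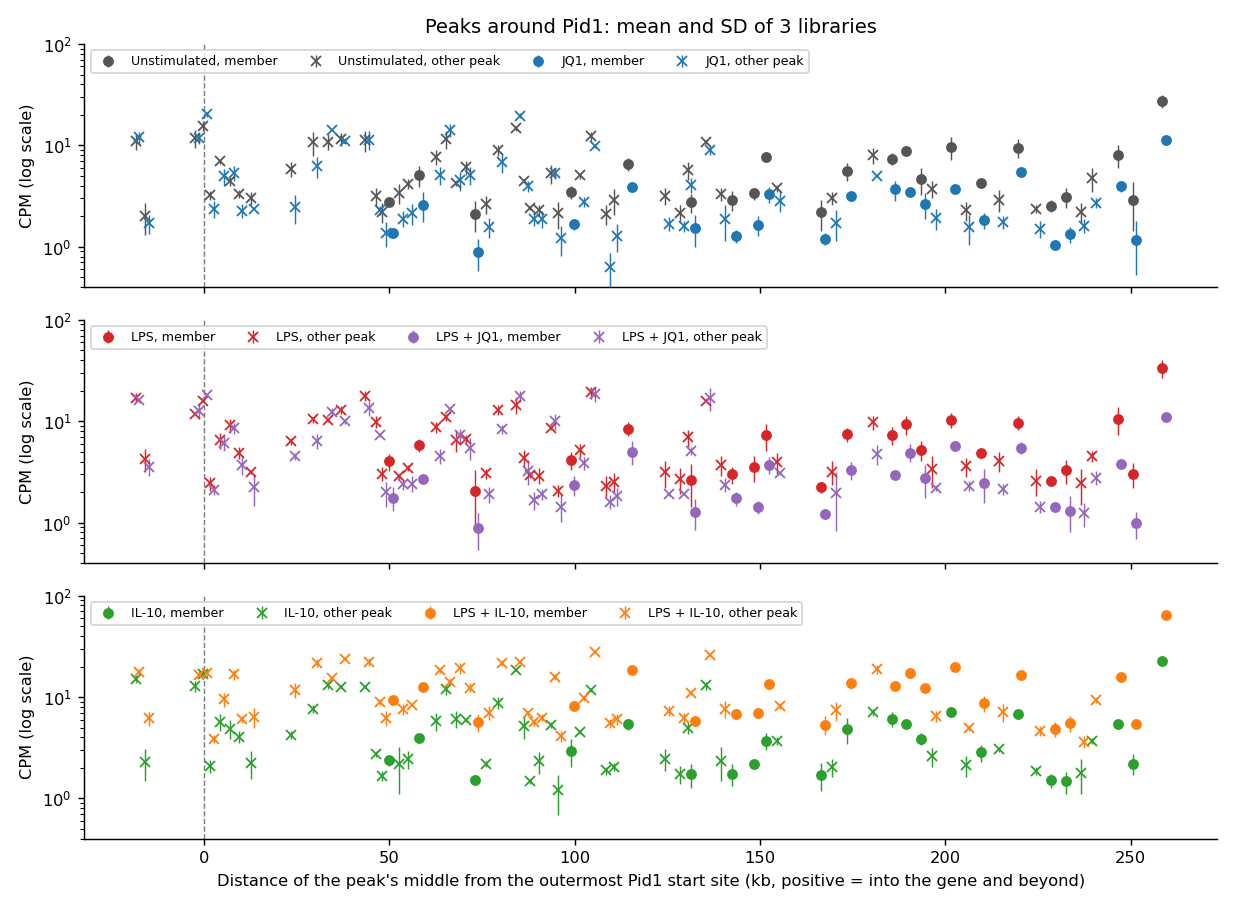
CPM (log axis, mean and SD of 3 libraries) of peaks around Pid1 by distance in kb from its outermost start site, for members (filled circles) and other eligible peaks (crosses), in 3 panels that pair Unstimulated with JQ1, LPS with LPS + JQ1 and IL-10 with LPS + IL-10. Members lie from 50.5 to 259 kb, lower with JQ1 in the upper 2 panels and higher with LPS + IL-10 in the lowest.

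Lists of macrophage genes showed where members lay by function. Over all protein-coding genes, 694 of 22225 had a member within 25 kb of a start site, and 566 of 73353 eligible peaks there were members (0.772%). Counts over the lists are small and carry no test. Among 20 genes of macrophage identity, Maf, Mitf and Fcgr1 had members, 5 of 298 eligible peaks (1.68%). Both members of Maf, a transcription factor of resident macrophages, lay in one stretch, and the larger (chr8:118212282-118220950) had 22.3, 26.1 and 23.7 CPM unstimulated, 10.9, 14.4 and 12.6 CPM with JQ1, 24.5, 28.9 and 29.6 CPM with LPS alone, against 12.6, 15.8 and 17.9 CPM with both JQ1 and LPS. An intronic peak of Mitf, the transcription factor of lysosomal and pigment genes, had 5.91, 4.81 and 4.61 CPM unstimulated and 2.07, 1.38 and 2.38 CPM with JQ1. No member lay near Csf1r, and Spi1 was not found under that name in the annotation, so it was not searched.

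Of the BET and P-TEFb genes, 1 of 9 had a member, 1 of 84 eligible peaks (1.19%). It was a promoter peak at Fpgs within 25 kb of Cdk9, the kinase of P-TEFb. The peak had 4.99, 4.68 and 4.83 CPM unstimulated and 2.53, 1.38 and 3.51 CPM with JQ1. Brd2, Brd3 and Myc had none. Adhesion genes had 3 of 232 peaks, at Itgal and Itgav. Lipid genes had 3 of 160 (1.88%), among them a peak in Msr1. Another lay in Ddb2, within 25 kb of a start site of Nr1h3, the gene of the oxysterol receptor LXR alpha. This peak in Ddb2 had a mean of 18.7 ± 3.44 CPM (SD, n = 3) unstimulated and 8.45, 6.91 and 11.2 CPM with JQ1. Cell cycle genes had 4 of 183 (2.19%), of which 3 lay at Ccnd2, the cyclin D2 gene.

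In the lysosome and phagocytosis list Ctss and Axl had a member each, 2 of 141 eligible peaks (1.42%). The Ctss peak (chr3:95342169-95360003), at the gene of the lysosomal protease cathepsin S, had 46.7, 41.4 and 39.4 CPM unstimulated, 13.4, 18.1 and 17.5 CPM with JQ1, 30.3, 37.5 and 46.6 CPM with LPS alone, 17.2, 20.2 and 20.5 CPM with both JQ1 and LPS, and 52.3, 50.5 and 54.1 CPM with IL-10, so the IL-10 libraries all stood above the unstimulated ones. Of 18 inflammatory cytokine and chemokine genes, the subunits of IL-12, Il12a and Il12b, had 1 member each, 2 of 137 eligible peaks (1.46%). No member lay near Tnf, Il1b or Il6. The member near Il12b passed narrowly, with ratios of 0.5969 and 0.5997, and the one near Il12a had 4.66, 3.29 and 2.45 CPM unstimulated, 1.96, 1.82 and 1.24 CPM with JQ1 and 1.22, 1.59 and 1.46 CPM with IL-10. Growth factor and MAP kinase feedback genes had 2 of 229 peaks, at Spred1 and Igf1r, AP-1 and related genes had 2 of 201, both at Maf, and alternative activation genes had none of 96.

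The response to LPS in IL-10-treated cells was measured entirely in libraries that had no part in choosing the members, and it was tested. Of the 866 members, 268 (30.9%) were higher in LPS + IL-10 than in IL-10 alone and 28 (3.23%) were lower. Of all 188309 tested peaks, 10.4% were called higher and 7.01% lower, and of eligible peaks 11.2% and 9.86% (edgeR quasi-likelihood test, 3 libraries against 3, FDR under 0.05 and log2 fold-change beyond 0.5). In same-numbered libraries 1, 2 and 3 under TMM, the scaling of this test, the members' median ratio of LPS + IL-10 to IL-10 was 1.27, 1.22 and 1.27, and that of LPS to unstimulated was 1.12, 1.27 and 1.41. At this scaling the ratios with and without IL-10 thus overlapped, and under column sums the ratio without IL-10 was 0.850, 1.08 and 1.35. The members' median log2 fold-change was 0.30, with quartiles of -0.07 and 0.72, and 612 were above 0. All tested peaks had a median of 0.02. The nearest comparison is with the 76612 other eligible peaks in the same range of LPS to unstimulated, of which 8.75% were called higher and 6.12% lower.

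The members differed among themselves in this response. Of the 493 with a ratio of LPS to unstimulated between 1 and 1.6, 45.0% were called higher, beside 14.5% of other peaks in that range, and of the 373 between 0.6 and 1, 12.3% beside 5.18%. By unstimulated level, from 2 to 3, 3 to 5, 5 to 10 and 10 or more CPM, the share called higher was 23.5%, 33.8%, 50.0% and 44.8% in members and 10.2%, 12.4%, 9.98% and 3.82% in other peaks. Promoter and distal members had 32.7% and 30.6%, beside 5.12% and 10.3%. The level per length moved with the response in all peaks. Under 2 CPM per kb, 42.5% of members and 20.7% of other peaks were called higher, and at 2 CPM per kb or more 16.4% and 6.48%. All 22 members at Pid1 were called higher, with log2 fold-changes from 1.03 to 1.95, as were 47 of the 63 other eligible peaks nearest to it. Without the 22, 246 of 844 members (29.1%) were called higher, and of the 585 members with no other member within 25 kb 136 (23.2%). Members chosen under TMM gave 58 of 205 (28.3%) higher and 7 lower. Without replicate 2, whose 2 libraries were sequenced in different lanes, 223 members were called higher and 18 lower. The study's methods name 3 Il10-/- mice and biological triplicates, without tying a library to a mouse.

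**Figure D5:**
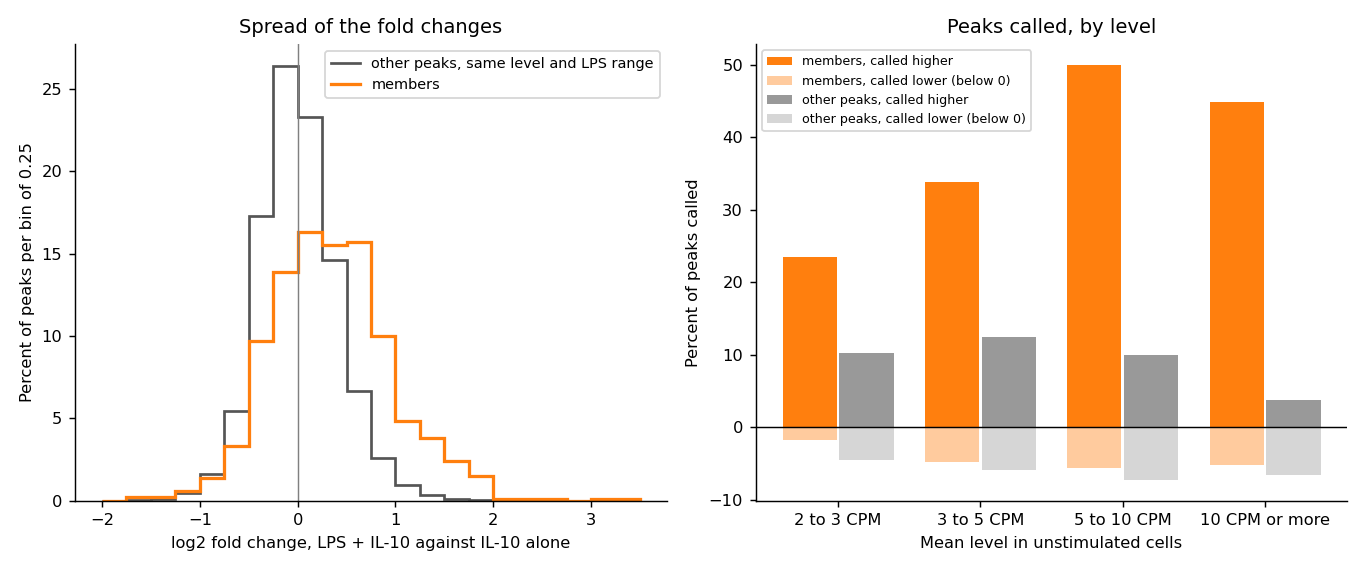
Left, distribution of the log2 fold-change of LPS + IL-10 against IL-10 alone in bins of 0.25, as a percentage of peaks, for members (orange) and other eligible peaks of the same range of LPS to unstimulated (grey). Right, percentage of peaks called higher (above 0) and lower (below 0) by unstimulated level. The members' distribution lies further to the right, and at each level more members than other peaks were called higher, from 23.5% to 50.0%.

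The largest rises were at Pfkfb3, the gene of an enzyme that raises fructose-2,6-bisphosphate and with it glycolysis. Just past its end, a member (chr2:11389251-11391626) had 2.87, 2.46 and 2.56 CPM with IL-10 and 33.9, 23.5 and 26.7 CPM with LPS + IL-10, a log2 fold-change of 3.39 ± 0.14 (edgeR, FDR 1.7e-36). In the libraries without IL-10 it had 3.49, 3.67 and 1.93 CPM unstimulated and 5.07, 4.90 and 2.91 CPM with LPS. The next peak (chr2:11392126-11393600) rose by 3.15 ± 0.19 and one in the gene (chr2:11404049-11407448) by 2.48 ± 0.14, both on the log2 scale. At Klf7, a Krüppel-like transcription factor gene, the leading member (chr1:64069735-64072190) rose from 1.70, 2.36 and 2.20 CPM to 13.1, 12.4 and 11.8 CPM, a log2 fold-change of 2.54 ± 0.17. None of these 4 was a member under TMM. Whether the response to LPS differed between cells with and without IL-10 was not tested for members, since the choice used the response without IL-10.

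Falls were fewer. Just past the end of Mapk8, the gene of the kinase JNK1, a member (chr14:34188261-34193062) had 8.18, 6.08 and 5.72 CPM with IL-10 and 1.59, 2.72 and 1.98 CPM with LPS + IL-10, a log2 fold-change of -1.71 ± 0.20 (edgeR, FDR 4.6e-11). Without IL-10 it was also lower with LPS, at 7.92, 7.69 and 6.82 CPM beside 13.1, 12.2 and 11.1 CPM unstimulated. Ly86 encodes MD-1, the partner of the CD180 protein. The member past its end (chr13:37510017-37518361) had 22.0, 19.1 and 25.1 CPM with IL-10 and 6.31, 8.58 and 9.97 CPM with LPS + IL-10 (-1.45 ± 0.13, edgeR FDR 3e-17), while in cells without IL-10 it held 16.0, 14.2 and 14.4 CPM unstimulated and 16.0, 18.5 and 17.6 CPM with LPS. The groups did not overlap in either peak. A weak member in Pcolce2 (chr9:95582930-95583711) fell by 1.55 on the log2 scale with a standard error of 0.35, and one near Mapre2 fell by 1.35, a call that was lost without replicate 1 (-1.03). Without IL-10, their ratios of LPS to unstimulated were 0.670 and 0.603.

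Set beside the controls that also entered the choice, the members stood lower with IL-10 alone than unstimulated. The median ratio of IL-10 to unstimulated was 0.632, beside 0.908 for eligible peaks, and 352 members (40.6%) stood at 0.6 or less, beside 8.94%. Weak eligible peaks also had a low ratio. At 2 to 3 CPM, where 472 members lay, the medians were 0.604 and 0.773, and at 10 CPM or more 0.757 and 1.10. Over eligible peaks of 1.5 to 2 CPM per kb the median was 0.774, and at 5 or more 1.15. Under TMM the medians over all members and all eligible peaks were 0.741 and 1.05, and 684 of the 866 members stood above 0.6. The unstimulated libraries thus entered both the choice and this ratio. For the peaks chosen on 2 replicates, which only partly overlap the 866, it was measured in the replicate left out of the choice. There it was 0.648, 0.754 and 0.860, beside 0.940, 0.918 and 0.962, and under TMM 0.808, 0.824 and 0.889, beside 1.20, 1.08 and 1.03. The ratio of JQ1 to IL-10 in those replicates, which uses no unstimulated library, was 0.859, 0.766 and 0.885, beside 0.967, 0.921 and 0.978, and that of LPS + JQ1 to LPS + IL-10 was 0.769, 0.731 and 0.758, beside 0.980, 0.940 and 0.965. With LPS, the median ratio of LPS + IL-10 to LPS was 0.774, beside 1.04, and in the left-out replicates it was nearer to 1, at 0.934, 0.862 and 0.858 beside 1.03, 1.03 and 1.05. At 0.6 or less in both IL-10 ratios stood 113 members, and above 1 in both 38, among them the peaks of Fyb, Clec4a2 and Ctss.

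Motif shares were computed for members and eligible peaks. In the middle 300 bases, 6.93% of members held an AP-1 site, TGAGTCA (exact 95% interval 5.33% to 8.83%), and 7.42% of eligible peaks did. For PU.1, GAGGAAGT, the shares were 3.35% and 4.12%, for the PU.1-IRF composite 8.31% and 10.1%, for kappaB, GGGANTTCC, 1.62% and 1.29%, for C/EBP, TTGCNNCAA, 2.77% and 2.40%, and for RUNX, TGTGGTT, 7.27% and 7.77%. STAT, TTCNNNGAA, was found in 10.2% and 8.64%, the CTCF core in 17.7% and 16.5%, the E-box in 3.81% and 4.62%, its MITF type in 22.6% and 20.9%, AGATAA, the letters bound by GATA factors, in 13.5% and 13.6%, interferon response, GAAANNGAA, in 8.66% and 9.82%, and CRE, TGACGTCA, in 0.346% and 0.398%. The widest gap was for KLF/SP, GGGCGG, at 6.12% and 10.9%, and among distal peaks alone it was 5.75% and 5.37%. Among the 205 peaks chosen under TMM the shares were 4.39% for AP-1, 1.46% for PU.1, 0.488% for kappaB and 11.7% for the PU.1-IRF composite, so these shares moved with the scaling of the choice. Both strands were searched, motifs may overlap, and a match describes letters and not a bound factor.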

How the data were processed

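ATAC-seq libraries of the 18 samples were grouped by their labels. The authors processed the reads with the PEPATAC pipeline, aligned uniquely mapped read pairs to mm9 with Bowtie2, called peaks in each library with MACS2 and classed the peaks as promoter or distal with ChIPseeker. The tool that counted reads, and whether reads were shifted for the transposase, are not given in the sources used here. The deposited values are raw counts per peak of the union, not pooled, and counts cover peaks alone, so reads outside peaks were not examined. In the table of all peaks, 6 columns matched no sample and were not used. The promoter and distal tables hold the same counts. Total counts in peaks, from 12020526 to 25908198 per library, set the counting precision. The exact interval of a motif share is over peaks and not over counts. It treats peaks as separate draws, although 281 members lay within 25 kb of another member.

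CPM and the rule were computed from the counts as stated above. Tests used edgeR 4.0.16 in R 4.3.3 (quasi-likelihood, TMM, filterByExpr, Benjamini-Hochberg over all tested peaks), with the 6 IL-10 libraries for LPS + IL-10 against IL-10 alone and all 18 libraries for the JQ1 contrasts. DESeq2 1.42.0 was an alternative, as were other scalings, filters, thresholds, a lane term, a replicate block and leaving out each replicate. The fit was tested on simulated data. Genes, gene ends, exons and sequence came from GENCODE and the NCBIM37 (mm9) genome. Of the promoter-class peaks, 78.1% overlapped that window at a start site of this annotation.

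Members and lists were chosen with earlier results of these data known. Named peaks were the 12 members with the lowest mean of both log2 ratios among those of at least 5 CPM and lower in all same-numbered pairs, the 5 promoter members of highest CPM, the 3 nearest each threshold on either side, the 4 largest called rises and falls in LPS + IL-10 against IL-10 alone, up to 8 genes with the most members within 25 kb of a start site and up to 4 members per gene list. Distances to gene ends, and the values of the runs beyond the named genes, were added after the values were seen. Some of these peaks and genes are not reported here.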

Additional observations from a re-analysis of the deposited data

How the results depend on the processing

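The number of members depended on the scaling and the thresholds. The rule chose 866 peaks on column-sum CPM, 205 on TMM-scaled CPM (189 shared) and 167 with DESeq2's size factors (152 shared). It chose 2745 at a minimum of 1 CPM, 166 at 5 CPM, 148 at ratios of 0.5 or less, 3216 at 0.7 or less and 460 with a narrower range of LPS to unstimulated. Leaving out 1 replicate number gave 736 to 1691 members, of which 345, 481 and 633 were among the 866 without replicate 1, 2 and 3. No source used here ties a replicate number to a mouse. Libraries numbered 1 all came from lane 5 and those numbered 3 from lane 6, while those numbered 2 came from both. Deviations of same-numbered libraries from the group means correlated at a mean of 0.00926, other pairs at -0.00463. Under this pairing, asking for a fall in every same-numbered pair left 770 members, and with the replicate number as a block 262 members were called higher and 29 lower in LPS + IL-10 against IL-10 alone. The blocked fit was also run for the JQ1 contrasts, and its values are not reported here. With the block in LPS + IL-10 against IL-10 alone, the 8 named rises and falls kept their calls. In that comparison, leaving out 1 replicate gave 187 to 223 members higher and 18 to 23 lower, DESeq2 gave 211 and 20, a lane term 248 and 27, and all 18 libraries in 1 fit 244 and 26. With members chosen under TMM, 58 were higher and 7 lower, of 205. The median log2 fold-change stayed between 0.24 and 0.33 under the alternatives run. The mean left-out ratio of LPS + JQ1 to LPS was 0.566 at a minimum of 5 CPM, beside 0.650 at 2 CPM. Motif shares over whole peaks in place of the middle 300 bases were higher in members and eligible peaks alike, for AP-1 34.2% and 32.5%. At 2 CPM, 24.0 to 51.8 counts per library limit what a ratio of weak members can show.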
